A study of Mus musculus with 2 samples.

Results

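The squares described here are the 2% of a mouse intestine section, taken after irradiation, in which genes of absorptive enterocytes held the largest share of the counts. The section, WT_IR, comes from WT mice given 10 Gy of X-rays. It was profiled by spatial transcriptomics, in which RNA of a frozen section 10 µm thick is captured on a surface of positioned barcodes. The barcodes were summed over squares with a side of 10 position units, and 4917 squares with 1000 or more counts were kept. Each was scored by the summed share of its counts from Apoa1, Apoa4, Fabp1, Apoc3, Slc5a1, Anpep and Ada, and the 98 squares with the highest score are the members. The other 4819 squares of the section are called the remaining squares. A second section, KO_IR, from mice labelled DPF2 KO and given the same 10 Gy, held 8285 kept squares and is used only where named. Both sections were irradiated and neither has an unirradiated counterpart here. The strain, age, time after irradiation, stretch of gut and deleted part of Dpf2 were not given in the sources used here. Dpf2 had 20.1 CPM in the members, 23.6 CPM in the remaining squares, 15.3 CPM in the top 2% of the KO_IR squares and 26.2 CPM in the rest of that section. It was thus not lower over the section labelled KO as a whole, and no direction is drawn from that label. CPM means counts of a gene in the squares summed, per 1000000 of all their counts.

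Enterocytes are the absorptive cells that cover the intestinal villi. Their brush border carries enzymes that finish the digestion of sugars and peptides, and transporters that take up the products. They pack absorbed fat into chylomicrons, particles built on apolipoproteins. The cells arise from crypts, where Paneth cells secrete defensins, and change their genes as they move from the bottom of the villus to its tip, where they are shed. Radiation can stop the supply of new cells from the crypts, and the villus lining then thins in the days after a high dose.

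The members held 796232 counts and 913 barcodes, against 38907463 counts and 49681 barcodes in the remaining squares. A member had a median of 8830.5 counts, and a remaining square a median of 7524. A square can hold several cells of different types. With 1 section per genotype there is no replicate and no test, and squares of 1 section are not replicates. Intervals in brackets are at 95% and cover counting error only. Here a gene is called higher or lower when it differed at least 2-fold. Of all 11657 genes with 200 or more counts, 3.62% were called higher and 7.76% lower. These shares belong beside each count of called genes in a list. In such summed counts, fewer cells of a type and less RNA per cell cannot be told apart.

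The score itself, which chose the members and is given only as a description, ran from 2647 to 22632 CPM over the 98 members, with a median of 7448 CPM. The last 3 squares inside the limit scored 2697, 2669 and 2647 CPM, and the first 3 outside it scored 2550, 2503 and 2500 CPM. There was thus no gap at the limit. Summed over squares, the 7 genes had 7831 CPM in the members, against 194 CPM in the remaining squares, of which 1753 had no count of any of them. A member rested on 3 to 265 counts of the 7 genes, with a median of 50. All 7 genes were detected in 35 members and 6 of them in 26. The other members showed 2 to 5 of the 7. Counts of Apoa1 and of Apoa4 were each found in 97 members, of Anpep in 87 and of Fabp1 in 51.

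The members lay close together. Of the 98, 86 (87.8%) touched another member by a side or a corner, whereas 169 of the remaining squares (3.51%) touched a member. A single patch held 72 members (73.5%), at x 600 to 750 and y 770 to 910 on a section that runs from x 0 to 1000 and y 80 to 950. The other 26 members fell into 16 further patches, 12 of them of 1 square. Cut at the median x and y of the barcodes into 4 sectors, the section held 87 members in the sector with high x and high y and 9, 1 and 1 in the others, although the sectors have 1168 to 1278 kept squares each. A square without barcodes lay beside 31.6% of the members and beside 25.2% of the remaining squares. Within the members, 88.7% of the barcodes had a count of a rule gene, against 12.0% of the barcodes outside them. A member's counts of these genes came at the median to 29.4% from its leading barcode, and in 18 members that barcode gave more than 50%. "Islands" therefore fits 1 large patch and 16 small ones. Whether the cells were there before the dose was not tested.

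**Figure D1:**
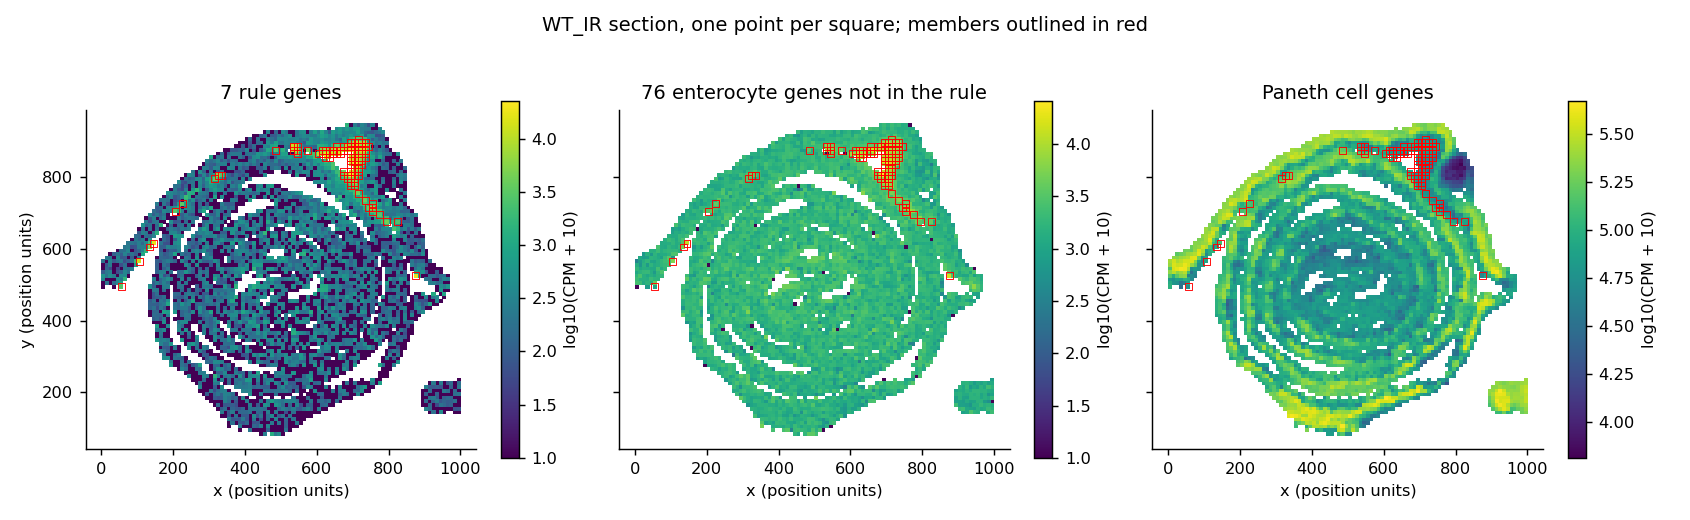
Maps of the WT_IR section with one point per square, at its x and y in position units. Colour gives the summed CPM of the 7 rule genes (left), of 76 enterocyte genes outside the rule (middle) and of the Paneth list (right) as log10(CPM + 10), and red outlines mark the 98 members. The members form 1 patch of 72 squares at high x and high y and 16 smaller patches. The Paneth list had a median of 61335 CPM over members and 89569 CPM over remaining squares, and single members ranged from 40254 to 160892 CPM.

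Among the 7 rule genes, the apolipoproteins of chylomicrons stood furthest apart. Apoa4 had 2920 CPM in the members and 33.8 CPM in the remaining squares, Apoa1 had 2717 and 46.5 CPM, and Apoc3 had 306 and 5.24 CPM. Single members ranged from 0 to 8297 CPM for Apoa4, with a median of 2747, and the highest remaining square had 1913 CPM. These 3 genes are neighbours on chromosome 9 (RefSeq, GRCm38.p6), with Apoa1 at 46228630 to 46230469, Apoc3 at 46233050 to 46235636 and Apoa4 at 46240844 to 46243458. Anpep, a brush border peptidase, had 666 CPM in the members and 21.4 CPM in the remaining squares. Ada, which deaminates adenosine, had 686 and 28.0 CPM. Fabp1, a fatty acid carrier of the cytosol, had 230 and 10.9 CPM, with a member median of 85.5 CPM. Slc5a1, the glucose and sodium cotransporter, had 306 and 48.1 CPM.

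Since each of these genes had helped to choose the squares, each was also read in 98 squares chosen by the other 6. These selections shared 93 to 97 squares with the members. The log2 ratio over the remaining squares was then 6.31 (6.22 to 6.41) for Apoa4, 5.82 (5.73 to 5.91) for Apoa1 and 5.87 (5.59 to 6.14) for Apoc3. It was 4.95 (4.79 to 5.11) for Anpep, 4.55 (4.39 to 4.70) for Ada, 4.27 (4.01 to 4.53) for Fabp1 and 2.63 (2.43 to 2.83) for Slc5a1. All 7 were over 2-fold higher there, Slc5a1 by the least. These squares were nearly the members themselves, so the ratios describe how the 7 genes go together and are no independent support. Slc5a1 rested on the sector with high x and high y: in the other sectors its log2 ratio over the members was -0.44. Slc5a1 also made up 24.8% of the rule counts in the remaining squares, and 3.91% in the members.

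Enterocyte genes that took no part in the score were higher in the members too. The 76 such genes of 4 lists (digestion at the brush border, transport, lipid absorption and xenobiotic enzymes) summed to 8182 CPM in the members, against 1704 CPM in the remaining squares, a log2 ratio of 2.26 (2.23 to 2.30). Of the 76, 46 had at least 200 counts over all kept squares. Slc15a1, Cyp4f14 and Mep1a reached this minimum only with their counts in the members. Their place among the 46, and among the higher genes, thus depends on the members. Of these 46, 29 were higher and 2 lower, with a median log2 ratio of 1.50. Of all 11657 genes with 200 or more counts, 3.62% were higher and 7.76% lower, and their median was -0.03. Single members ranged from 960 to 25963 CPM for the sum, with a median of 7661, and the remaining squares had a median of 1645 and a maximum of 8811. The 2 sets of squares overlapped. Within the sectors the log2 ratio was 2.18 where 87 members lie, 1.21 where 9 lie, and -0.80 and 3.32 in the sectors with 1 member each. The -0.80 rests on 1 count of these genes in a member of 1042 counts and carries no weight. In the 11 members outside the sector with high x and high y, the sum was 1.36 over the remaining squares there, with lipid absorption at 1.60, xenobiotic enzymes at 1.47, digestion at 0.93 and transport at 0.82. The name enterocyte thus describes the sum of these genes over all members, but not each list in each sector. These lists were also chosen with earlier results of these data known, so they are no independent support for the name.

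**Figure D2:**
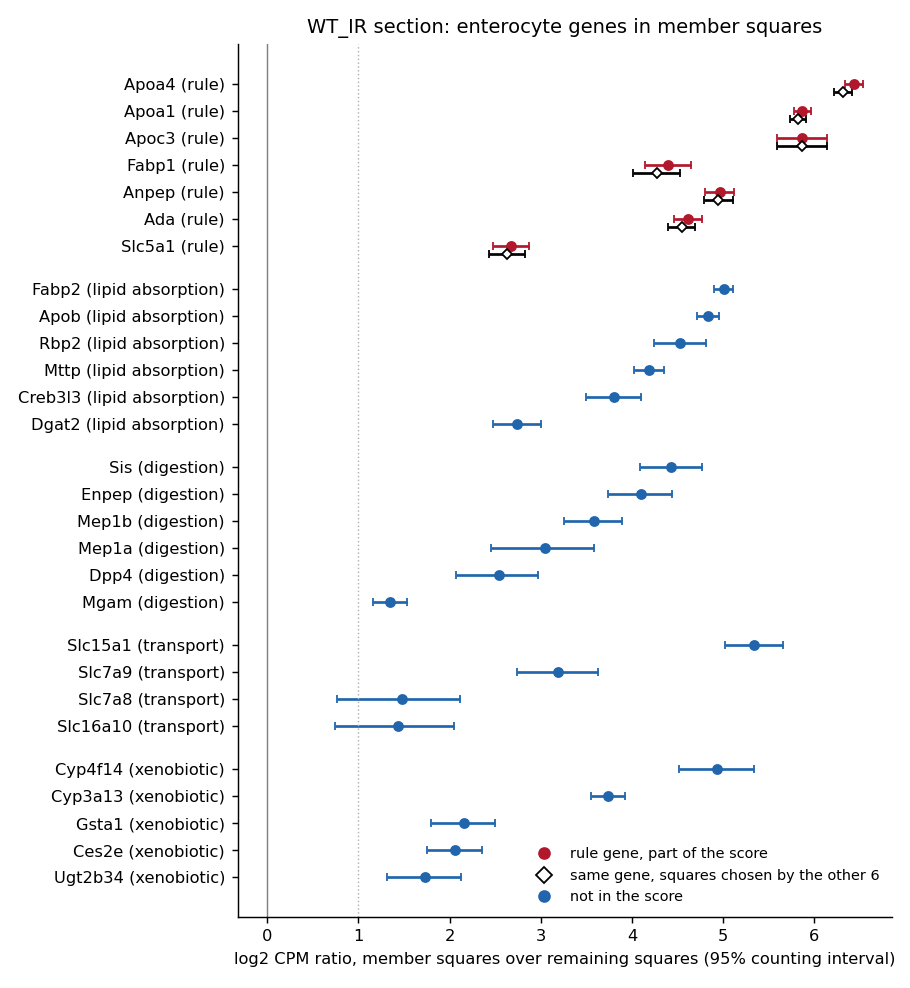
Log2 ratio of CPM in the 98 members over the remaining squares of the WT_IR section, with 95% counting intervals. Filled red points are the rule genes, open diamonds the same genes in squares chosen by the other 6, and blue points genes outside the score. The dotted line marks a 2-fold difference. All genes drawn lie to the right of it, from Mgam at 1.35 to Apoa4 at 6.43.

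Lipid absorption had the highest summed ratio of the lists outside the rule (2.56), with 13 of its 18 measured genes higher and 2 lower (median log2 ratio 2.17). Fabp2, the intestinal fatty acid binding protein, had 1496 CPM in the members and 46.5 CPM in the remaining squares, a log2 ratio of 5.01 (4.90 to 5.11). Its members ranged from 0 to 6662 CPM, with a median of 1285, and 52 of them exceeded the highest remaining square, at 1192 CPM. Apob, the scaffold of the chylomicron, had 1098 and 38.4 CPM (4.84, 4.71 to 4.96). Mttp, which loads lipid onto Apob, had 527 and 29.0 CPM (4.19, 4.02 to 4.35). Rbp2, which carries retinol in the cell, had 190 and 8.20 CPM, and Dgat2, which completes triglyceride synthesis, had 175 and 26.1 CPM. The 2 lower genes were Clps, the pancreatic lipase cofactor, with 59.0 CPM in the members and 121.5 CPM in the remaining squares, and Cd36, a fatty acid receptor named after its values were seen, with a log2 ratio of -1.46.

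Of the digestive enzymes of the brush border, 7 of 8 measured genes were higher and none lower (median log2 ratio 2.79). Sis, the sucrase and isomaltase enzyme, had 133 CPM in the members and 6.17 CPM in the remaining squares, a log2 ratio of 4.43 (4.09 to 4.77). Its median over members was 0 CPM and its maximum 1107 CPM, so the sum rests on a part of the members. The peptidase Enpep had 117 and 6.84 CPM, and the meprin subunits Mep1b and Mep1a had 131 and 10.9 CPM, and 40.2 and 4.88 CPM. Dpp4, which cuts dipeptides off the end of peptides, had 60.3 and 10.4 CPM. Mgam, the maltase, was nearest to the rest of the section among the higher genes that are named, with 319 and 125 CPM (1.35, 1.16 to 1.53).

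Of the transporters, 4 of 10 measured genes were higher and none lower (median log2 ratio 0.50). Slc15a1, the uptake carrier of small peptides, had 195 CPM in the members and 4.81 CPM in the remaining squares, a log2 ratio of 5.34 (5.02 to 5.65). Slc7a9, a light chain of amino acid exchange, had 65.3 and 7.15 CPM. Slc38a2 and Slc3a2, which many cell types use, had 162 and 173 CPM, and 100.5 and 88.0 CPM, and were not called. Of the xenobiotic enzymes, 5 of 10 were higher and none lower (median log2 ratio 1.29). Cyp4f14, a fatty acid hydroxylase, had 104 and 3.42 CPM (4.93, 4.52 to 5.34), and Cyp3a13, a drug-oxidising cytochrome, had 365 and 27.4 CPM. Cytoskeletal genes of the brush border were higher in 6 of 13, led by the microvillar cadherin Cdhr2 with 227 and 29.4 CPM.

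Promoters of these genes were searched for the letters CAAAGTNCA on either strand, the core of the element bound by HNF4, a nuclear receptor of enterocytes and hepatocytes. The window runs from 250 bases before to 50 after the start of the gene (RefSeq, GRCm38.p6). Of the 83 rule and other enterocyte genes, 71 had a promoter in the table and 10 of them held these letters (Alpi, Apoa4, Cyp2c65, Cyp2d26, Cyp3a11, Fabp2, Rbp2, Slc3a1, Sult1b1 and Treh). Among all 32851 promoters, 464 (1.41%) held them. A match describes the sequence and is not a measured site. The promoters of Apoa4 (chr9:46240594-46240893, plus strand) and Fabp2 (chr3:122894822-122895121, plus strand) are shown because they had the highest ratios inside and outside the score among genes with the match and 200 or more counts. Capitals mark it, and in Fabp2 it reads on the minus strand.
Apoa4: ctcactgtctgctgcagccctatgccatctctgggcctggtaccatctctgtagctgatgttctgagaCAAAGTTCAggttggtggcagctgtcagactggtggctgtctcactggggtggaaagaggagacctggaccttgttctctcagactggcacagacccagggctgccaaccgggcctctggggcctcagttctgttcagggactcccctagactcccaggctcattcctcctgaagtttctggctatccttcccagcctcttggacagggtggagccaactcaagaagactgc
Fabp2: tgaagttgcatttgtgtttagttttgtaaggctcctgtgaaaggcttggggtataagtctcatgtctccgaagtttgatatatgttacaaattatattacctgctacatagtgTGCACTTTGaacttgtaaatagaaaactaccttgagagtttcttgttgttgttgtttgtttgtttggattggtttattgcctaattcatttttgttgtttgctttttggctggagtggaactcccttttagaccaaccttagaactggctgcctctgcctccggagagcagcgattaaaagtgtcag
The match begins 182 bases before the start of Apoa4 and 137 bases before that of Fabp2. Hnf4a itself was not called, with a log2 ratio of 0.72.

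Genes of both ends of the villus were higher in the members. Of 14 genes of the villus tip, 8 were higher and none lower (median log2 ratio 1.85). Clca4a, a secreted metalloprotease-like protein of the tip, had 1012 CPM in the members and 20.6 CPM in the remaining squares (5.62, 5.48 to 5.76). Slc28a2, a purine nucleoside carrier, had 409 and 10.1 CPM (5.34, 5.12 to 5.56). Krt20, a keratin of differentiated epithelium, had 810 and 79.7 CPM, and Nt5e, which makes adenosine from AMP, had 52.7 and 4.63 CPM. Of 7 measured genes of the villus bottom, 4 were higher and none lower (median log2 ratio 1.44). Reg3b, a secreted antimicrobial lectin, had 4677 and 567 CPM (3.05, 2.99 to 3.10). Zg16, a lectin of the mucus that binds bacteria, had 1934 and 139 CPM (3.80, 3.72 to 3.88). It is on the goblet cell list too, so it does not stand for the villus bottom alone. Each gene of these lists is measured against its own level elsewhere in the section. Without the sector of high x and high y, the summed villus bottom list stood at 0.67 in the 11 members left, compared with 1.86 in all members, and Reg3b at 1.01, while the villus tip list stood at 1.11, compared with 1.72. Within the sectors the villus bottom list had 1.55 where 87 members lie, 0.54 where 9 lie, and -0.33 and 1.14 in those with 1 member each. The member behind the -0.33 holds only 1042 counts, so that value is imprecise.

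Of 17 transcription factors of enterocytes, 5 were higher and none lower (median log2 ratio 0.75). Klf4, a factor of differentiated epithelium, had 118 CPM in the members and 22.0 CPM in the remaining squares. Nr1i2, the xenobiotic receptor, had 27.6 and 10.2 CPM, and Gata6 had 61.5 and 28.5 CPM. Genes of the ileum list were higher in 4 of 6 and lower in 1, with Slc51a, a subunit of the bile acid exporter, at 192 and 25.4 CPM. On the list of the proximal small intestine, 1 of 5 genes outside the rule was higher, namely Rbp2. Neither regional list was without its markers in the members, so no stretch of gut is assigned.

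Over the whole transcriptome the members differed little. Of 5736 genes with 1000 or more counts, 160 (2.79%) were higher and 150 (2.62%) lower, and the median log2 ratio was 0.03. The genes named here from outside the lists had 1 sign in all 4 sectors. In 2 of these sectors there is 1 member each, in 1 of them with only 1042 counts, where a gene must be abundant to have a count at all and most genes lie at 0, so this condition is no sign of stability. Among the 20 highest of these genes was Oasl1, an antiviral gene, with 266 CPM in the members and 71.6 CPM in the remaining squares (log2 ratio 1.89, 1.69 to 2.10). The 20 also included Abhd2, a lipid hydrolase, with 386 and 109 CPM, and Prap1, a secreted protein, with 1124 and 367 CPM. Dstn, which severs actin filaments, had 975 and 460 CPM, and Eps8l2, an actin regulator, had 99.2 and 39.9 CPM. Without the condition on sectors, Tm4sf4, a tetraspan membrane protein (384 CPM in the members and 44.9 CPM in the remaining squares), also ranked among the highest, a choice made after its values were seen.

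Interferon and antigen presentation genes were higher in part. Of 18 interferon genes, 4 were higher and none lower (median log2 ratio 0.58). Isg15, a ubiquitin-like antiviral protein, had 382 CPM in the members and 96.2 CPM in the remaining squares (1.99, 1.82 to 2.16), and Rsad2, an inhibitor of viral replication, had 151 and 46.1 CPM. Of 15 antigen presentation genes, 2 were higher: the class I gene H2-Q2 with 94.2 and 8.28 CPM, and the class II gene H2-Ab1 with 180 and 80.6 CPM. H2-Q2 belongs to a family of near-identical genes among which reads can be split, so its value is uncertain. Of 22 p53 targets, 1 was higher and 1 lower. That is near the shares over all genes with 200 or more counts, 3.62% higher and 7.76% lower, and is no result about the list. Pmaip1, the death-promoting Noxa, had 182 and 30.8 CPM (2.56, 2.30 to 2.81), whereas Cdkn1a, the inhibitor of the cell cycle, had 328 and 257 CPM. Atf3, a stress-induced factor, had 40.2 and 9.15 CPM.

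Many genes of Paneth cells and of the deeper wall were lower in the members. Among all genes with 200 or more counts, 7.76% were lower and 3.62% higher. The 20 Paneth genes summed to 65388 CPM in the members, against 135562 CPM in the remaining squares, a log2 ratio of -1.05 (-1.06 to -1.04). Of the 20, 12 were lower and none higher (median -1.04). Single members held 40254 to 160892 CPM of the list, with a median of 61335, and the remaining squares had a median of 89569. Defa24, a Paneth defensin, had 16836 and 36853 CPM, with 8785 to 46065 CPM in single members, so no member lacked Paneth RNA. The defensin genes resemble each other closely, and how reads shared between them were counted was not given in the sources used here. Of 12 smooth muscle genes, 6 were lower and none higher (median -1.04), with Des, the muscle intermediate filament, at 16.3 and 68.0 CPM. Of 10 genes of enteric neurons and glia, 7 were lower (median -1.41), with the neuropeptide Vip at 70.3 and 192 CPM. Of 21 fibroblast and matrix genes, 5 were lower, with Mmp3, a matrix protease, at 47.7 and 203 CPM. Igfbp5, which binds insulin-like growth factors, was outside the lists and had 369 and 1324 CPM (-1.84, -2.01 to -1.68).

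Of 21 inflammatory mediators, 11 were lower and none higher (median log2 ratio -1.0), where 7.76% of all genes with 200 or more counts were lower and 3.62% higher. Il11 had 44.0 CPM in the members and 165 CPM in the remaining squares, Il6 had 7.54 and 41.7 CPM, Cxcl1, which attracts neutrophils, had 35.2 and 106 CPM, and Ptgs2, which makes prostaglandins, had 183 and 400 CPM. These values changed with the squares set against the members. Against the remaining squares of the sector with high x and high y alone, the log2 ratio of the summed list was -0.33, compared with -0.72 against all remaining squares. The neutrophil list had -0.03 against that sector and -0.49 against all. Against that sector the sum over the Paneth list stood at -0.85, that over the 76 enterocyte genes at 2.12 and that over smooth muscle at -1.08. With that sector left out of both sets of squares, which leaves 11 members, the inflammatory list stood at 0.084, the neutrophil list at 0.38, the Paneth list at -0.20, smooth muscle at -0.76 and Ptgs2 alone at 0.012. Within the sectors the Paneth list had -0.96 where 87 members lie, -0.26 where 9 lie, and -1.32 and -1.52 in those with 1 member each. The inflammatory list had -0.45, 0.37, -0.28 and -0.37 in the same sectors. The member behind the -1.32 and the -0.28 holds only 1042 counts, so these 2 values are imprecise.

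Dividing cells did not set the members apart. Of 30 proliferation genes, none was 2-fold higher or lower, with 2730 CPM in the members and 2654 CPM in the remaining squares (log2 ratio of the sum 0.04, -0.02 to 0.10). Of 16 stem cell genes, 2 were lower, with Smoc2 at 70.3 and 148 CPM, and Olfm4 had 47.7 and 24.6 CPM. Of 23 genes of regenerating epithelium, 2 were higher and 1 lower (median -0.24). Ly6d, a surface protein of squamous and regenerating epithelium, had 309 and 123 CPM, and Msln had 37.7 and 112 CPM. Over all genes with 200 or more counts, 3.62% were higher and 7.76% lower, so these few genes do not mark the stem cell or regenerating lists as a whole. The pan-epithelial list was within 2-fold as a sum (0.47, 0.43 to 0.50), with Epcam, an adhesion protein of all epithelia, at 1045 and 512 CPM.

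Markers of other cell types were also higher in part. The shares over all genes with 200 or more counts were 3.62% higher and 7.76% lower. The lists of 5 adipocyte and 3 haemoglobin genes are too short to be read against these shares. Of 11 plasma cell genes, 4 were higher and 1 lower, and the list summed to 8501 CPM in the members and 4118 CPM in the remaining squares (1.05, 1.01 to 1.08), or a log2 ratio of 0.68 without the sector of high x and high y. Igha, the heavy chain of IgA, had 5395 and 2570 CPM, and Jchain, which joins IgA molecules, had 364 and 138 CPM. Mzb1 and Pou2af1, which serve antibody-making cells, lay below 0, at -0.97 and -1.70. Single members held 867 to 45515 CPM of the list, with a median of 4650, and the remaining squares had a median of 2900. Of 13 goblet cell genes, 4 were higher and none lower, namely Zg16, Clca1, Fcgbp and Tff3, all secreted into mucus. Clca1 had 72.8 and 5.60 CPM and Fcgbp 491 and 51.4 CPM. Muc2, the main mucin of goblet cells, had 1274 and 1316 CPM, and the goblet cell factors Spdef and Atoh1 lay at -0.52 and -0.36. Of 5 adipocyte genes, 2 were higher, with Cidec, a protein of lipid droplets, at 45.2 and 5.17 CPM, while Fabp4 had 129 and 133 CPM, and Adipoq and Lep had no count in the section. Of 3 haemoglobin genes, 1 was higher, Hbb-bs with 46.5 and 22.4 CPM. A single member held up to 10728 CPM of that list and the median member had 0, and without the largest patch the log2 ratio of Hbb-bs was -1.02. The part of these cells in the values above was not tested.

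The enterocyte genes fell off within 1 or 2 squares. Squares adjoining a member had 894 CPM of the 7 rule genes, those 2 squares away 353 CPM, those 3 away 228 CPM and those 11 or more away 144 CPM. The choice of members sets this fall for the rule genes. The 76 genes outside the rule had 8182 CPM in the members, 2752 CPM at 1 square, 1797 CPM at 2 and 1678 CPM at 11 or more. Villus bottom genes reached further out, with 10422 CPM in the members, 6949 CPM at 1 square, 4137 CPM at 2 and 2384 CPM at 11 or more. The Paneth list ran the other way and had a peak, with 65388 CPM in the members, 91209 CPM at 1 square, 193116 CPM at 3 and 121375 CPM at 11 or more. Proliferation genes varied from 2514 to 3068 CPM over all distances. The B cell list had 116 CPM in the members, 57.8 CPM at 1 square, 385 CPM at 6 to 10 squares and 45.2 CPM further out. The median distance to the nearest of the 98 squares richest in B cell genes was 70.4 position units for members and 116.6 for remaining squares. It differed along the members, at 59.2 in the large patch's body, 53.9 in the 10 squares at lower y and 142.4 in the 32 squares at lower x.

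**Figure D3:**
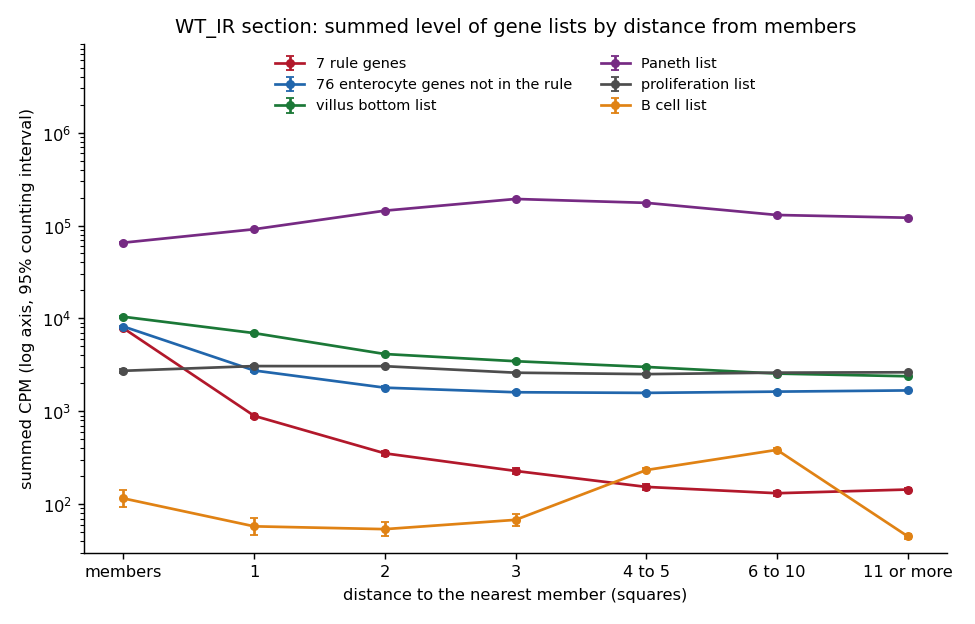
Summed CPM of 6 gene sets in the WT_IR section (log axis, 95% counting intervals) against the distance to the nearest member in squares. The rule genes drop to 894 CPM at 1 square, the Paneth list peaks at 193116 CPM at 3 squares and the B cell list at 385 CPM at 6 to 10 squares.

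Ranking the squares by other lists gave the members back in part. Of the 98 squares highest for lipid absorption, 79 were members, and of those highest for the villus tip, 53 were. The figure was 49 for brush border digestion, 48 for the villus bottom and 43 for xenobiotic enzymes. It was 33 for the structure of the brush border, 24 for the ileum list, 22 for the proximal list, 13 for transport and 6 for the transcription factors, where members make up 1.99% of all squares. Of the 98 squares highest for the Paneth list, for proliferation, for smooth muscle, for B cells and for inflammatory mediators, none was a member. With members at 1.99% of all squares, 0 of 98 lies near that share and does not show that members avoid these lists. The lists share the cells they mark, so these shares are a description.

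The members were not alike along the section. They were split after their values were seen, so no test is given. The western stretch has 32 squares at x below 670. At x of 670 or more lie a body of 56 squares in the large patch and a tail of 10 squares at y below 770. The western stretch mixes squares of the large patch, which begins at x 600, with small patches out to x 50. Fabp1 had 32.8 CPM in the west, 271 CPM in the body and 402 CPM in the tail. Sis had 10.9, 175 and 134 CPM, and Slc5a1 had 93, 369 and 377 CPM. Reg3b had 1137, 5335 and 8304 CPM. Apoa4 ran the other way, with 3423, 3083 and 743 CPM, as did Ada with 952, 681 and 122 CPM. So did Zg16, on the villus bottom list like Reg3b, with 2313, 1986 and 755 CPM. Clca4a had 1148, 1086 and 231 CPM and Slc28a2 had 295, 504 and 48.7 CPM. The west thus held Apoa4 and Clca4a near the level of the body with little Sis or Fabp1, and the tail held Reg3b and Fabp1 with less of these tip genes.

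The squares around the stretches differed in part the same way. Over the remaining squares within 3 squares, Reg3b had 516 CPM around the west, 2409 CPM around the body and 2832 CPM around the tail. Sis had 2.03, 32.8 and 38.6 CPM there, and Fabp1 had 8.61, 46.0 and 32.5 CPM. Apoa4 had 92.7, 134 and 95.1 CPM, with no such order. The west over the body gave a log2 ratio of -3.05 (-4.52 to -1.89) for Fabp1, -4.00 (-7.07 to -2.11) for Sis and 0.15 (0.02 to 0.28) for Apoa4. The tail holds only 82131 counts, the fewest of the stretches, so its values are imprecise. The western values of Sis and Fabp1 rest on only 2 and 6 counts and are imprecise too. Western Sis, at 10.9 CPM, lies below the level of 3 counts there, 16.4 CPM.

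**Figure D4:**
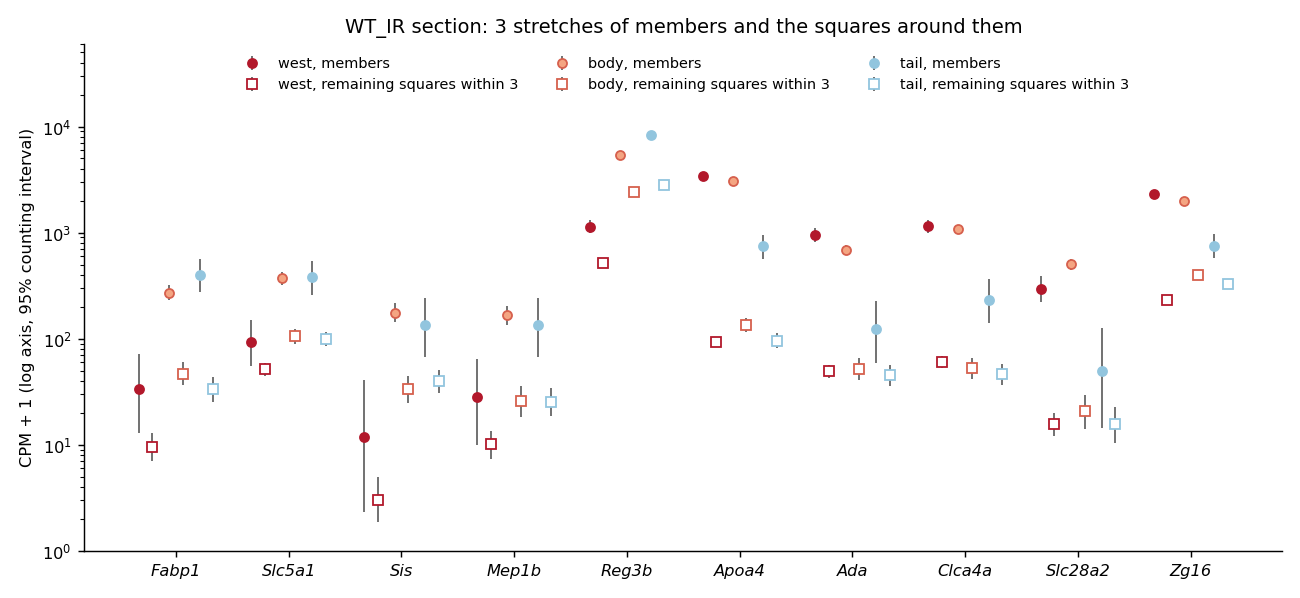
CPM + 1 (log axis, 95% counting intervals) of 10 genes in the western, body and tail members (circles) and in the remaining squares within 3 squares of each (squares). Fabp1, Slc5a1, Sis, Mep1b and Reg3b are lowest in the western members, and Apoa4, Ada, Clca4a, Slc28a2 and Zg16 are lowest in the tail.

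Set beside the KO_IR section, the members held less of these genes than most of that section. The members had 7831 CPM of the 7 rule genes, the top 2% of KO_IR squares (166 squares) had 71523 CPM, and the rest of that section had 25526 CPM. The lowest KO_IR square scored 3605 CPM, so 100% of its squares exceeded the lowest member, and the highest member, at 22632 CPM, lay below the KO_IR median of 22707 CPM. Of the 98 members, 23 reached the 10th percentile of KO_IR squares, 11756 CPM. The members' 76 other enterocyte genes stood at 8182 CPM, against 31610 CPM in the KO_IR squares outside the top, a log2 ratio of -1.95 (-1.99 to -1.91). With 1 section per genotype, section and genotype cannot be told apart.

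The gap to the KO_IR section was not equal over the lists. Against the KO_IR squares outside the top, the members had a summed log2 ratio of 0.01 (-0.03 to 0.06) for the villus tip list and 0.00 (-0.03 to 0.03) for the pan-epithelial list. It was -1.27 for lipid absorption, -2.30 for transport, -2.94 for digestion and -3.52 for the proximal list. For the Paneth list it was 3.10 and for regenerating epithelium 1.95. Within the 7 rule genes, Fabp1 made up 2.94% of the rule counts in the members, 5.01% in the top KO_IR squares and 20.2% in the rest of that section. Apoa4 made up 37.3%, 44.3% and 21.4%. Slc5a1 made up 3.91%, 4.96% and 14.6%. Apoa1 made up 34.7%, 21.3% and 23.4%, Apoc3 3.91%, 5.97% and 5.15%, Anpep 8.50%, 5.51% and 10.6%, and Ada 8.76%, 13% and 4.70%. The members' share was nearer to the top KO_IR squares for Fabp1, Apoa4 and Slc5a1 and nearer to the rest of that section for the other 4 genes.

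The same rule applied to KO_IR chose squares of another composition relative to their own section. With the gene minimum of 1000 counts, of 8571 genes there, 3.99% were higher and 26.8% lower in the top squares, and the median log2 ratio was -0.48. Over genes with 200 or more counts, the minimum used for the lists, the median was -0.03 in WT_IR and -0.64 in KO_IR. The villus tip list had a median of 1.85 in WT_IR and 1.35 in KO_IR. The villus bottom list had 1.44 in WT_IR and -1.05 in KO_IR, the proliferation list had -0.04 in WT_IR and -1.41 in KO_IR, and the plasma cell list had 0.59 in WT_IR and -1.18 in KO_IR.

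**Figure D5:**
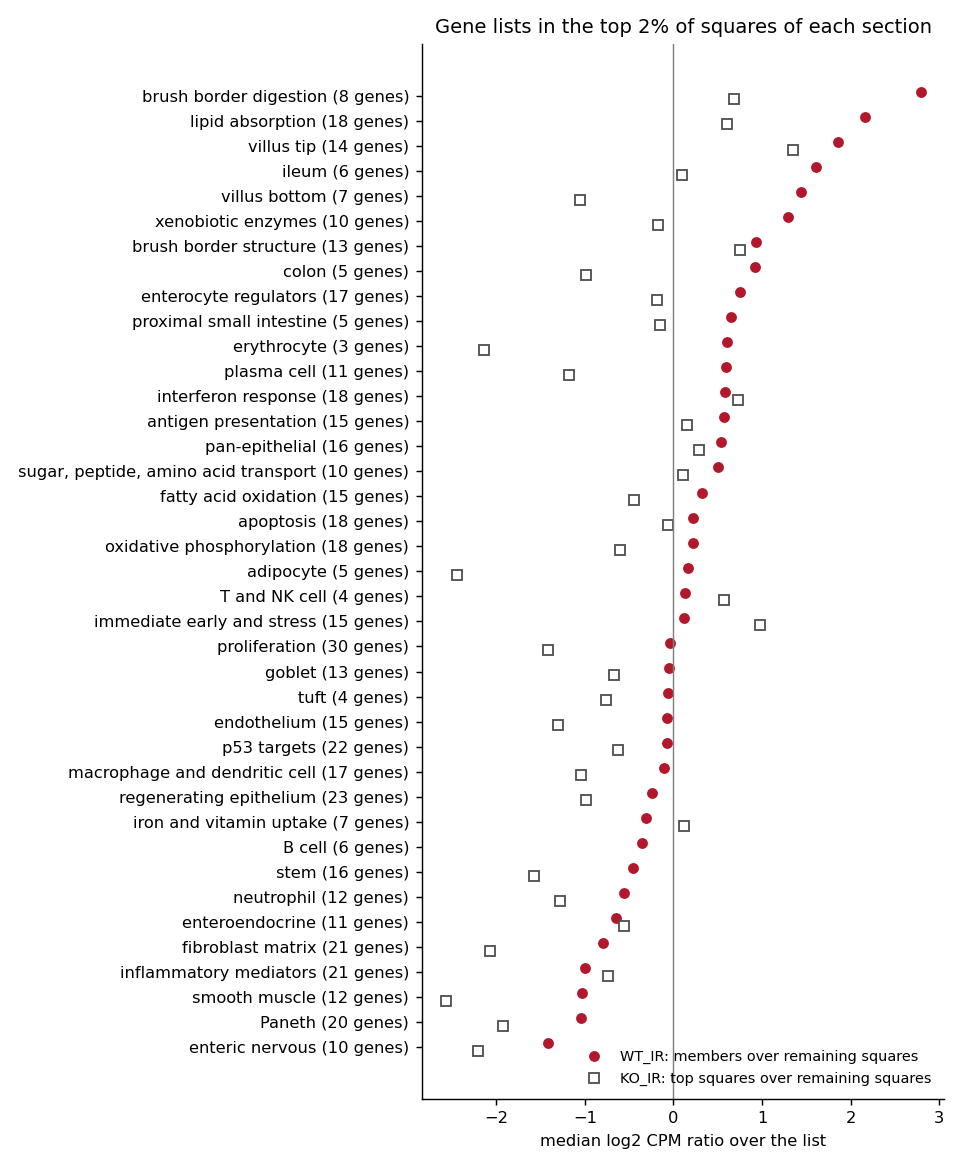
Median log2 ratio of CPM over the genes of each list, for the WT_IR members over the remaining squares (red circles) and for the top 2% of KO_IR squares over the rest of that section (open squares). The number of genes measured in WT_IR stands beside each list. In WT_IR the lists run from 2.79 for brush border digestion to -1.41 for enteric nervous genes, and the villus bottom list lies at 1.44 in WT_IR and -1.05 in KO_IR.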

How the data were processed

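Spatial transcriptomes of mouse intestine came from 1 section per genotype. Per the labels' protocols, frozen sections were profiled and barcodes under tissue kept with BSTMatrix and BSTViewer. The build was GRCm38, per the submitters' processing notes. Aligner, counter, collapsing of molecular identifiers and the unit of position were not given in the sources used here. Per gene and barcode, the authors deposited whole-number counts (39824941 counts in WT_IR, 89754886 in KO_IR). Features repeating a symbol (94) were summed. Genes of chromosome X held 0 counts in both sections. Of the barcode names, 45557 occur in both sections. Whether a shared name stands for the same array position in both was not checked.

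Counts were summed over squares (Python 3.11.15, numpy 2.4.6, scipy 1.17.1) and given as CPM with exact Poisson intervals and log2 ratios with exact binomial (Clopper-Pearson) intervals at 95%. A group at 0 was set to a floor of 3 counts and its ratio taken as a bound. No test was possible with 1 section per genotype. The 40 gene lists, like the members, were chosen with earlier results of these data known. Genes were named by a rule: the 7 rule genes, Dpf2, up to 5 largest ratios and the 2 most abundant genes per list, and the 20 highest and 20 lowest ratios with 1000 or more counts and 1 sign in 4 sectors, leaving out predicted, ribosomal protein, variable immunoglobulin and haemoglobin genes. Cd36, Hnf4a, Dgat2, Krt20, Mzb1, Spdef, Atoh1, Tm4sf4 and the genes given by stretch were chosen after their values were seen. Some genes that the rule takes in are not reported here. On simulated data with 5736 genes, 100% of 4-fold changes and 0.199% of unchanged genes were called. The simulation held counting error only and no differences between places in the section. Its 0.199% is therefore not the share of false calls in these data. Alternatives varied squares, limits, totals and sectors.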

Additional observations from a re-analysis of the deposited data

Results flagged for a closer look

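Some lists and genes stood apart from their own section in opposite directions in the members of WT_IR and in the top 2% of KO_IR squares chosen by the same rule. Each section is 1 sample, and the difference between them was not tested. The rest of KO_IR is itself rich in enterocyte genes, with 25526 CPM of the rule genes. Over all genes with 200 or more counts, the median log2 ratio was -0.03 in WT_IR and -0.64 in KO_IR.

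For the villus bottom list, the median log2 ratio was 1.44 in WT_IR and -1.05 in KO_IR. Ccl25, a chemokine of the small intestine, stood at 1.44 in WT_IR and -1.40 in KO_IR.

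For the plasma cell list, the median was 0.59 in WT_IR and -1.18 in KO_IR. Jchain stood at 1.40 in WT_IR and -1.27 in KO_IR, Igkc, the kappa light chain, at 1.13 and -1.64, and Igha at 1.07 and -1.75.

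Among enterocyte genes outside the rule, Sis stood at 4.43 in WT_IR and -1.09 in KO_IR, and Gsta1, a glutathione transferase, at 2.16 and -1.80. Nr1h4, the bile acid receptor, stood at 1.05 in WT_IR and -1.48 in KO_IR.

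The colon list had a median of 0.92 in WT_IR and -0.98 in KO_IR, and the erythrocyte list of 3 haemoglobin genes 0.61 and -2.14. Hbb-bs stood at 1.05 in WT_IR and -2.01 in KO_IR. The chemokine Ccl3 stood at -1.43 in WT_IR and 1.31 in KO_IR, on 2 counts in the members and 1 in the top KO_IR squares.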

How the results depend on the processing

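Among the lists outside the rule, 12 differed at least 2-fold as a sum, and none of these 12 changed sign under any alternative run. The 2-fold difference was kept by 5 of the 12 without the sector of high x and high y, by 7 with the top 5% of squares, by 8 with the members outside the largest patch, and by 9 to 12 under the others. Of the named genes at least 2-fold apart, 75 of 113 kept it without that sector and 74 of 140 with the top 5%. The counts of genes at least 2-fold apart were 160 higher and 150 lower. With the top 1% of squares 328 were lower, and with the top 5% 88 were higher and 23 lower. A gene minimum of 500 counts gave 267 and 385, and one of 3000 counts gave 55 and 51, as more or fewer genes were counted. The summed log2 ratio of 76 enterocyte genes outside the rule was 2.63 with the top 1%, 1.67 with the top 5%, 2.21 with squares of 20 position units, 2.30 without adjoining squares and 2.14 without defensin genes in the total. The share of members touching another was 93.9% with the top 1% and also with the grid shifted.

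Leaving out the sector with high x and high y, which leaves 11 members, gave 242 genes higher and 594 lower and a log2 ratio of 1.36. It was 2.31 without the sector of low x and high y, and 94 genes were lower without that of high x and low y. With that first sector left out, Slc5a1 stood at -0.44 (2.67 with all squares), Sprr1a at -1.05 (1.14), Ptgs2 at 0.012 (-1.13), Mmp13 at 0.76 (-1.21), Ang4 at 0.033 (-1.26), Mmp8 at 0.75 (-1.27) and Postn at 0.78 (-1.84). Ccl3, at -1.43 with all squares, turned to 0.26 with the top 5% and to 0.11 with the shifted grid. The cause was not tested.

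Some alternatives were chosen after seeing the data. The largest patch alone gave 2.43, and the 26 members outside it gave 1.50, with 411 genes lower, Prdm1 at -0.17 (1.50 with all members) and Hbb-bs at -1.02 (1.05). Against the remaining squares of the sector with high x and high y, the log2 ratio was 2.12, with 50 genes higher and 27 lower of the 1645 that reached the gene minimum. Leaving 1 rule gene out of the score kept the 76 genes between 2.26 and 2.28 and the share of members touching another between 85.7% and 91.8%. No paired analysis was possible because each genotype has 1 section. Depth limits single squares, since a member rests on as few as 3 counts of the rule genes.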
